A study of Mus musculus with 12 samples.

Results

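The enzymes that write, copy, and remove methyl groups on cytosine in DNA were followed at the level of their mRNA in mouse embryonic fibroblasts. These were given an excess of S-adenosylmethionine (SAM) or of adenine, or an inhibitor of the methyl cycle enzyme AHCY. The paper reports that adenine inhibits AHCY as well. The group was set by name and holds 8 genes, the DNA methyltransferases Dnmt1, Dnmt3a, and Dnmt3b, the cofactors Uhrf1 and Uhrf2, and the TET dioxygenases Tet1, Tet2, and Tet3. Of these, 7 were among the 12591 genes of the expression table, limited by the authors to those reaching 1 CPM (a read count scaled to library size) in every library. Tet1 was not among the genes listed, and no value is given for it.

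DNA methyltransferases take the methyl group from SAM and place it on cytosines that precede a guanine (CpG sites), leaving S-adenosylhomocysteine, which inhibits them until AHCY removes it. DNMT1 copies the pattern onto the new strand when DNA is replicated, guided by UHRF1, which reads hemimethylated CpG sites, whereas DNMT3A and DNMT3B set methylation at new sites. UHRF2 is the close relative of UHRF1 and does not replace it in maintenance methylation. TET enzymes oxidise methylcytosine with iron and 2-oxoglutarate, and the oxidised bases are then lost by replication or cut out by the glycosylase TDG and base excision repair.

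The cells were immortalized fibroblasts from embryos of strain C57 PER2::LUC, in which the clock protein PER2 carries luciferase, and they were treated for 24 h after reaching confluence. There were 4 groups of 3 dishes, namely CTL, DZ (10 μM Deazaneplanocin A, an inhibitor of AHCY), adenine (1 mM), and SAM (1 mM). All groups, CTL included, received 3.3 mM HCl, the solvent of adenine. Nothing in the labels says that the dishes came from separate cultures, so p-values measure the spread between dishes, which may be technical.

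The authors deposited log2 CPM values on normalized library sizes. Whole reads could be recovered from these values, and the reads on listed genes ranged from 45649534 to 56789090 per library. The 7 genes had between 134 reads (Dnmt3b in adenine replicate 1) and 17418 reads (Dnmt1 in SAM replicate 1) in a library. Of 12 fibroblast markers 10 were listed, without Dcn and Lum, and their summed level was between 23872 and 24357 CPM in CTL, 30446 and 31073 in DZ, 27733 and 30180 in adenine, and 19785 and 21139 in SAM. The lower sum in SAM came with Fn1, the most abundant marker, which fell by 1.58 on the log2 scale, while the other 9 were called higher (median of the 10 genes 0.43). None of 5 endothelial and 6 epithelial markers was listed. Of 8 leukocyte markers only Cd68 was, at 2.7 to 3.96 CPM in CTL and DZ, 10.8 to 12.3 in adenine, and 15.5 to 17.6 in SAM. Of 8 pluripotent cell markers only Sox2 and Klf4 were listed, Pou5f1 and Nanog not. SAM replicate 3 lay farthest from the other libraries of its group, with a root mean square distance of 0.166 log2 units over all genes. The other 11 libraries had 0.122 to 0.160. Differences of the 7 genes that rest on SAM replicate 3 are given with and without that library.

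To compare levels between genes, CPM were divided by the length of the exons and are given as CPM per kb. In CTL the order was Uhrf2 with 17.3 ± 0.427 (SD, n = 3), Dnmt1 with 11 ± 0.284, Tet3 with 5.83 ± 0.324, Uhrf1 with 5.21 ± 0.0568, Dnmt3a with 2.43 ± 0.11, Tet2 with 1.2 ± 0.0551, and Dnmt3b with 0.586 ± 0.0494. The 3 CTL libraries of each gene lay apart from those of its neighbours in this order. DZ left the first 2 and the last 3 places as they were, but Uhrf1 with 5.78 ± 0.303 now stood above Tet3 with 4.73 ± 0.0489 (SD, n = 3). With adenine and SAM the order at the top changed. Dnmt1 was first with 27.6 ± 1.04 in adenine and 32.8 ± 2.17 in SAM (SD, n = 3), and Uhrf1 second with 20.5 ± 0.357 and 31.5 ± 1.29. In SAM the ranges of Dnmt1 and Uhrf1 overlapped, although Dnmt1 was the higher in each library, with 34.4 against 32.7, 33.7 against 31.6, and 30.3 against 30.2. Exon lengths were taken over all annotated transcripts of a gene, so the order also depends on which transcripts the cells use.

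**Figure D1:**
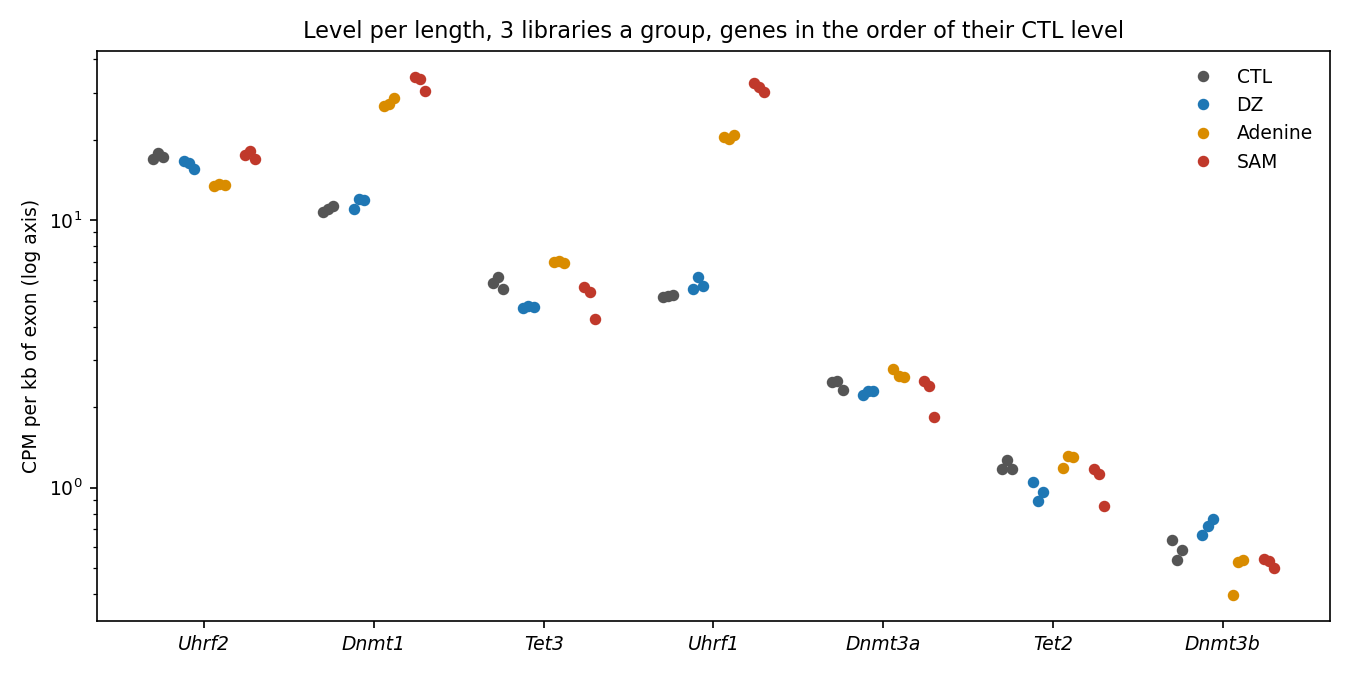
Level of the 7 listed genes in CPM per kb of exon, on a log axis, with a point for each of the 3 libraries of CTL, DZ, adenine, and SAM and the genes in the order of their CTL level. Dnmt1 and Uhrf1 rise above Uhrf2 in adenine and SAM, while Dnmt3a, Tet2, and Dnmt3b stay the 3 lowest in all groups.

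The balance within the pair of UHRF genes turned over per length, but not in CPM. The ratio of Uhrf1 to Uhrf2 per length was 0.305, 0.292, and 0.307 in the CTL libraries and 0.332, 0.376, and 0.365 in DZ. It was 1.52, 1.47, and 1.54 in adenine and 1.87, 1.75, and 1.77 in SAM. Per length, Uhrf2 was thus the more abundant transcript in all 6 libraries of CTL and DZ, and Uhrf1 in all 6 of adenine and SAM. In CPM, not divided by length, Uhrf1 stayed below Uhrf2 in every library. The means were 6.76 against 7.13 log2 CPM in adenine and 7.38 against 7.51 in SAM. The change of order thus rests on the exon lengths used, 5277 bases for Uhrf1 and 10385 for Uhrf2. For the methyltransferases, Dnmt1 per length stood at 4.53 times Dnmt3a in CTL (geometric mean, n = 3), 5.13 times in DZ, 10.4 times in adenine, and 14.7 times in SAM. Tet3 over Tet2 was 4.84 in CTL, 4.9 in DZ, 5.5 in adenine, and 4.87 in SAM.

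Differences between groups were tested with limma on the log2 CPM values of all 12591 genes, in a model of all 12 libraries, and a gene was called at an FDR under 0.01. DZ changed 2 of the 7 genes, 1 higher (Uhrf1) and 1 lower (Tet3), where 45.9% of all genes were called (22.6% higher and 23.4% lower). Adenine changed 4, Dnmt1, Uhrf1, and Tet3 higher and Uhrf2 lower, where 61.6% of all genes were called (30.6% higher and 31% lower). SAM changed 2, Dnmt1 and Uhrf1, both higher, where 69.3% of all genes were called (33.7% higher and 35.7% lower). No member was called lower under SAM by limma (0 of 7, also 0 with voom on the recovered reads), although 2 were lower at an unadjusted p under 0.05 (1 with voom). Between the metabolites given at the same dose, SAM and adenine, 4 differed, Dnmt1, Uhrf1, and Uhrf2 higher and Tet3 lower with SAM, where 42.7% of all genes were called (20.8% higher and 22% lower). The median log2 fold change of the 7 genes was -0.10 with DZ, 0.13 with adenine, -0.13 with SAM, and 0.11 in SAM against adenine, where all genes had medians of -0.006, -0.003, -0.015, and 0.000. The 3 comparisons with CTL share the CTL libraries. With plain read totals in place of the authors' scaling, the median of all genes under SAM moved to 0.106, and of the genes called 61.2% were higher under SAM (48.5% with the authors' scaling) and 63.2% in SAM against adenine (48.6%).

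**Figure D2:**
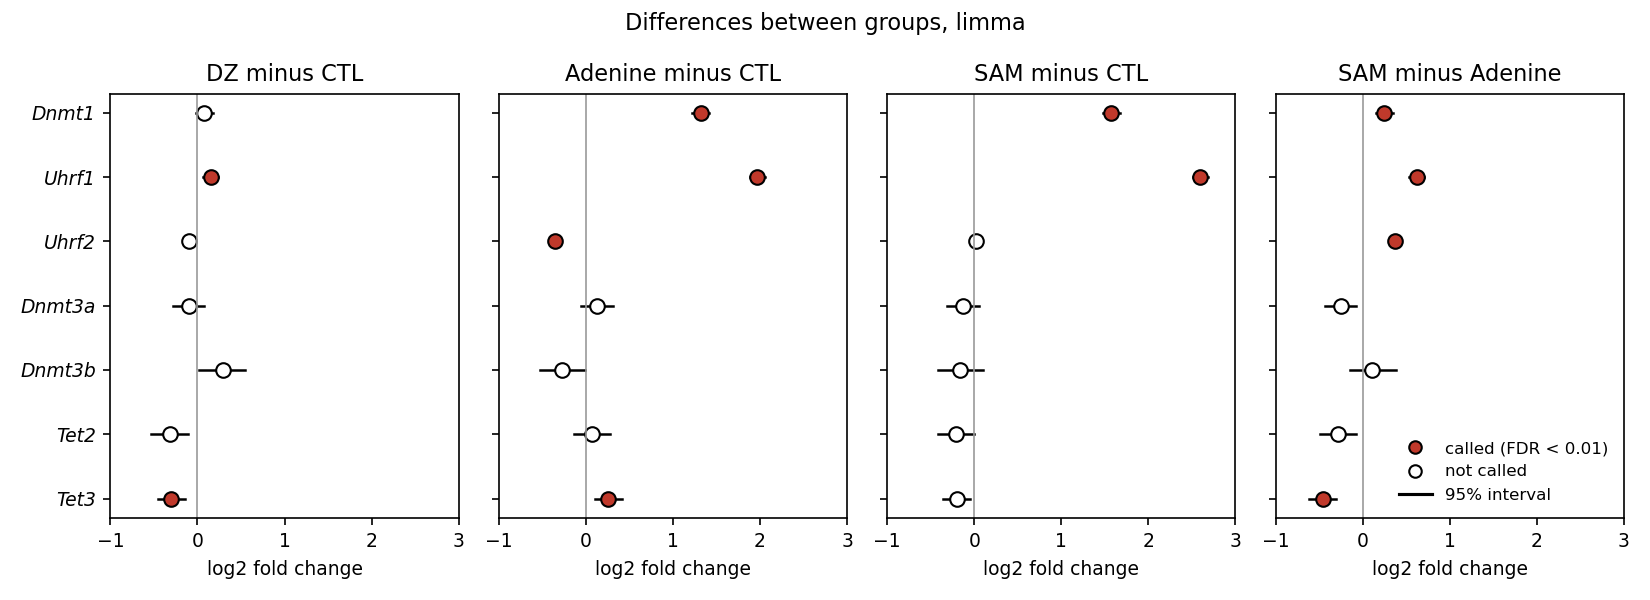
Log2 fold change of each of the 7 genes (points) with its 95% interval (lines) in DZ, adenine, and SAM against CTL and in SAM against adenine, filled where limma called the gene at an FDR under 0.01. The values of Dnmt1 (1.32 and 1.57) and Uhrf1 (1.97 and 2.59) under adenine and SAM stand apart from all others, which lie between -0.46 and 0.62.

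The maintenance genes Dnmt1 and Uhrf1 rose together under adenine and further under SAM, whereas DZ moved them by little. Uhrf1 (ENSMUSG00000001228, chromosome 17, 56610275 to 56630489, plus strand of GRCm39) measured 4.77, 4.78, and 4.80 log2 CPM in CTL and 4.87, 5.02, and 4.91 in DZ. It measured 6.75, 6.73, and 6.78 in adenine and 7.43, 7.38, and 7.31 in SAM. No 2 groups overlapped. The increase was 3.93-fold with adenine (log2 fold change 1.97, standard error 0.041, adjusted p = 1.2e-14) and 6.04-fold with SAM (2.59, adjusted p = 1.31e-16). By the size of its rise Uhrf1 ranked 55 of 12591 genes under SAM and 125 under adenine. The rise under DZ was 0.15 (95% interval 0.06 to 0.24, adjusted p = 0.00619). Its call was lost without any of 5 of the 6 libraries compared, with values between 0.11 (without DZ replicate 2) and 0.16 (without DZ replicate 3), the exception being DZ replicate 1. SAM exceeded adenine by 0.62 (adjusted p = 1.01e-08).

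Dnmt1 (ENSMUSG00000004099, chromosome 9, 20817945 to 20871184, minus strand) measured 6.51, 6.55, and 6.58 log2 CPM in CTL and 6.55, 6.67, and 6.66 in DZ. It measured 7.83, 7.85, and 7.93 in adenine and 8.19, 8.16, and 8.01 in SAM. The DZ libraries overlapped with CTL, and those of adenine and SAM lay above both and apart from each other. With adenine the transcript was 2.5-fold higher (log2 fold change 1.32, standard error 0.047, adjusted p = 1.44e-12), and with SAM 2.98-fold (1.57, adjusted p = 9.91e-14). Under DZ the difference was 0.08, with a 95% interval of -0.02 to 0.18 (adjusted p = 0.161). SAM exceeded adenine by 0.25 (adjusted p = 3.4e-04), or by 0.31 without SAM replicate 3, the lowest of its group.

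Uhrf2 (ENSMUSG00000024817, chromosome 19, 30007571 to 30071692, plus strand) moved the other way under adenine and stayed near CTL under SAM. It measured 7.46, 7.53, and 7.48 log2 CPM in CTL, 7.44, 7.40, and 7.34 in DZ, 7.12, 7.15, and 7.13 in adenine, and 7.51, 7.56, and 7.46 in SAM. The adenine libraries lay below all others, and SAM overlapped with CTL. The log2 fold change was -0.35 for adenine (standard error 0.033, adjusted p = 1.07e-07). It was 0.02 with SAM (95% interval -0.05 to 0.09, adjusted p = 0.586), but plain read totals as scaling gave a called rise of 0.14. SAM exceeded adenine by 0.37 (adjusted p = 2.13e-07). Under DZ the value was -0.10 (adjusted p = 0.0191), which was not called.

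**Figure D3:**
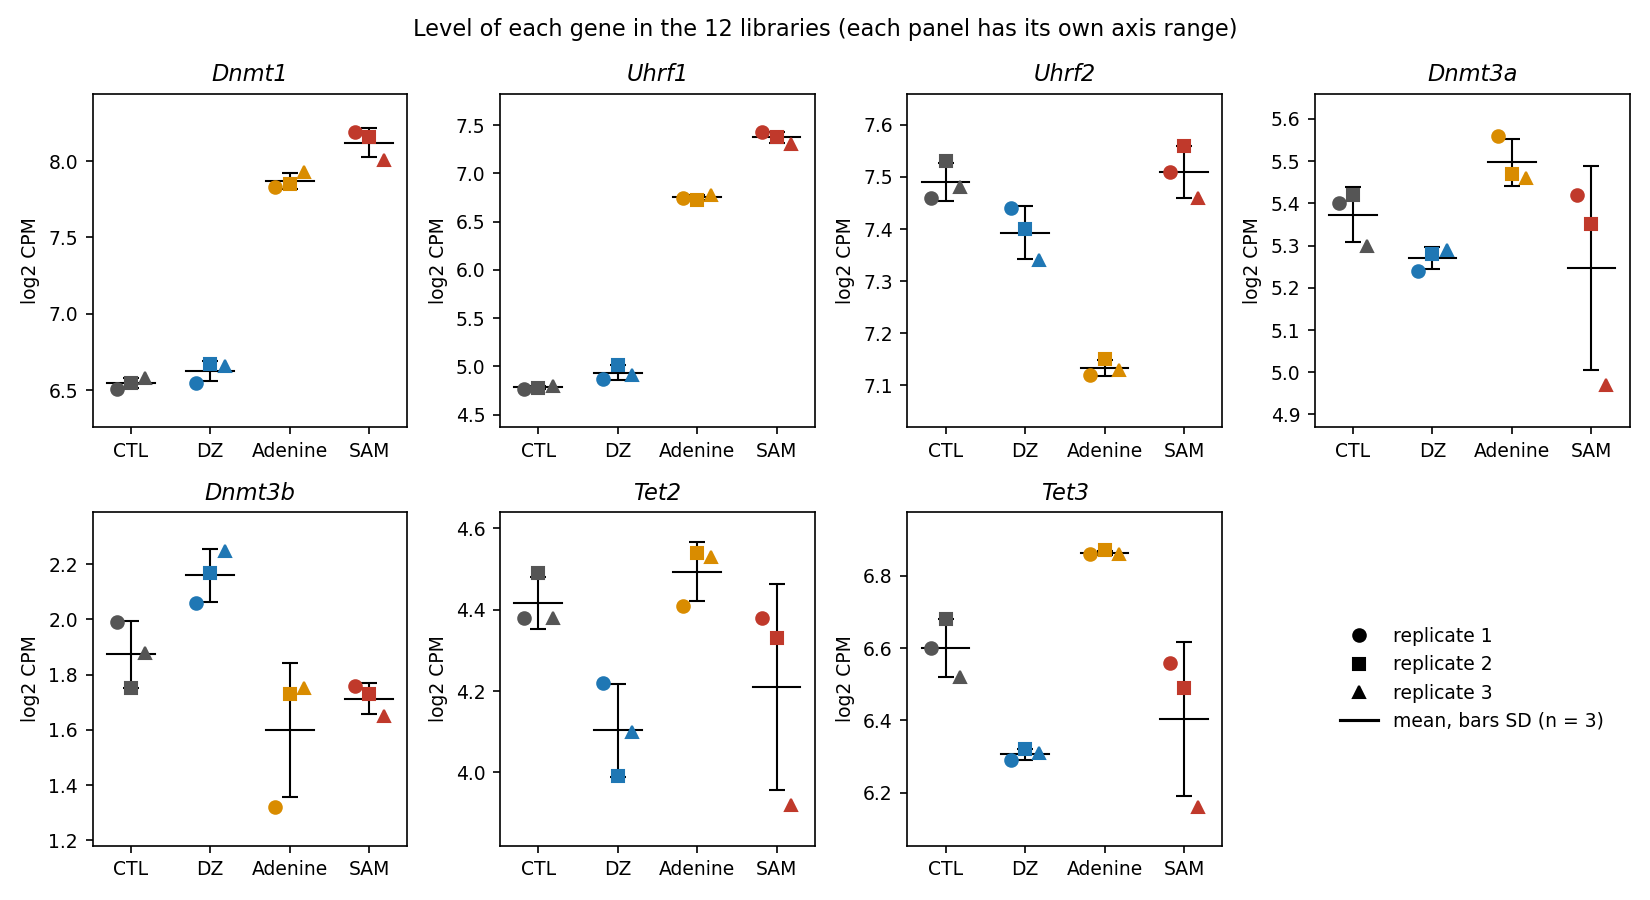
Log2 CPM of the 7 genes in the 12 libraries, with a symbol for each replicate, a line at the mean, and bars for the SD (n = 3). Each panel has an axis range of its own. Dnmt1 and Uhrf1 are high in the 6 libraries of adenine and SAM, and SAM replicate 3 is the lowest library of all for Dnmt3a (4.97), Tet2 (3.92), and Tet3 (6.16).

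The promoters were read for CpG sites, the dinucleotide on which these enzymes act. In the 250 bases before the start of the canonical transcript (GRCm39, GENCODE vM39), both Dnmt1 and Uhrf1 have 7 CpG sites, fewer than the median of 13 over the 10948 protein-coding genes of the table, of which 19.2% have fewer than 7. The other members have more than the median, with 17 in Dnmt3b and Tet2, 21 in Uhrf2, 38 in Tet3, and 39 in Dnmt3a. The Dnmt1 and Uhrf2 windows lie wholly in annotated exons of other transcripts (250 of 250 bases). The Tet2 window shares 133 bases with such exons and the Dnmt3b window 19. Only the Uhrf1 window lies wholly before the annotated span of its gene. Those of Dnmt1, Dnmt3a, Dnmt3b, Uhrf2, and Tet3 lie inside the span of theirs, and the Tet2 window in part. They are therefore not upstream of all transcripts of these genes. With 7 genes the CpG counts are a description, and methylation of these windows was not analysed here. The windows of Uhrf1, the largest rise, and Tet3, the largest fall called (SAM against adenine), are printed 5′ to 3′ with each CpG in capitals. They lie at chr17:56610025-56610274 on the plus strand and chr6:83433375-83433624 on the minus strand, and neither overlaps an annotated exon. The Tet3 window lies inside its gene, whose annotated span reaches 83436066.
Uhrf1: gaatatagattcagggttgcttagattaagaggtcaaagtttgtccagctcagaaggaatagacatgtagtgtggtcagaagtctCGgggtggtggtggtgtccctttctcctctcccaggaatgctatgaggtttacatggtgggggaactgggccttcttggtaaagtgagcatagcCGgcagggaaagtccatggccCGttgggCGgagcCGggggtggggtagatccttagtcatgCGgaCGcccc
Tet3: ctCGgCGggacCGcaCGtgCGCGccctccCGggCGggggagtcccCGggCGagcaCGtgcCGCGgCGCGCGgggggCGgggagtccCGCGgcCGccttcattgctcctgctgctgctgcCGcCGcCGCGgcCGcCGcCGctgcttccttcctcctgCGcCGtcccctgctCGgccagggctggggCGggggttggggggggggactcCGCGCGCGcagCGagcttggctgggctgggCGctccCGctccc

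The Uhrf1 window shows long stretches without a capital, whereas CpG sites run through the whole Tet3 window. The core site of the E2F factors of S phase, searched on both strands in its 4 spellings TTTCGCGC, TTTGGCGC, TTTCCCGC, and TTTGCCGC, had no match in any of the 7 windows, which says only that these letters are not in these bases. It was found in 3.31% of the 10948 windows and in 4 of the 26 windows of the S phase genes described below.

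The de novo methyltransferases did not pass the test in any comparison. Dnmt3a (ENSMUSG00000020661, chromosome 12, 3856007 to 3964443, plus strand) measured 5.40, 5.42, and 5.30 log2 CPM in CTL, 5.24, 5.28, and 5.29 in DZ, 5.56, 5.47, and 5.46 in adenine, and 5.42, 5.35, and 4.97 in SAM. All DZ libraries lay below CTL and all adenine libraries above, by means of -0.10 (adjusted p = 0.314) and 0.13 (adjusted p = 0.191), while SAM overlapped with CTL (-0.13, adjusted p = 0.181). SAM replicate 3 decided the last value, which was 0.011 without it. SAM minus adenine was -0.25 (adjusted p = 0.0187), -0.34 and called without SAM replicate 1, and -0.12 without SAM replicate 3. The replicate block also called it (adjusted p = 0.0096).

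Dnmt3b (ENSMUSG00000027478, chromosome 2, 153490861 to 153529650, plus strand), the lowest of the 7, had 134 to 223 reads per library. It measured 1.99, 1.75, and 1.88 log2 CPM in CTL, 2.06, 2.17, and 2.25 in DZ, 1.32, 1.73, and 1.75 in adenine, and 1.76, 1.73, and 1.65 in SAM. The DZ libraries lay above all others, those of adenine and SAM overlapped with CTL, and adenine replicate 1 was the lowest of all. The log2 fold change was 0.29 for DZ (95% interval 0.02 to 0.55, adjusted p = 0.058), -0.27 for adenine (-0.53 to -0.01, adjusted p = 0.0617), and -0.16 for SAM (-0.42 to 0.10, adjusted p = 0.25). Without adenine replicate 1 the adenine value was -0.13. These intervals are the widest of the 7 genes.

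Of the TET genes, Tet3 was called lower under DZ and higher under adenine, and Tet2 was not called in any of the 4 comparisons. Tet3 (ENSMUSG00000034832, chromosome 6, 83339355 to 83436066, minus strand) was higher than Tet2 in all groups, while Tet1 was not listed. Tet3 measured 6.60, 6.68, and 6.52 log2 CPM in CTL and 6.29, 6.32, and 6.31 in DZ. It measured 6.86, 6.87, and 6.86 in adenine and 6.56, 6.49, and 6.16 in SAM. DZ lay below CTL and adenine above it without overlap, while SAM overlapped with CTL. The log2 fold change was -0.30 for DZ (standard error 0.072, adjusted p = 0.00249) and 0.26 for adenine (adjusted p = 0.00482). DZ and adenine were given at different doses and were not tested against each other. The DZ call was lost without CTL replicate 2 (-0.26, adjusted p = 0.015). The adenine call was lost without any of 5 of the 6 libraries compared, all but CTL replicate 2, with values between 0.22 (without CTL replicate 3) and 0.26. Under SAM the value was -0.20 (adjusted p = 0.0198), called at -0.28 without SAM replicate 1 and reduced to -0.081 without SAM replicate 3.

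The sharpest contrast of a TET gene was between the metabolites given at 1 mM, where Tet3 was lower with SAM than with adenine by a log2 fold change of -0.46 (95% interval -0.61 to -0.31, adjusted p = 7.77e-05). It was -0.34 without SAM replicate 3 (adjusted p = 4.96e-06). Of all genes 6.93% had a lower value in this comparison. Exons of Tet3 share 1512 bases with Bola3 on the other strand. The kit marks strand, but whether the counting used it was not given in the sources used here. Bola3 had log2 fold changes of 0.26 with DZ, 0.37 with adenine, 0.36 with SAM, and -0.01 between SAM and adenine, and its part in the values of Tet3 was not tested.

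Tet2 (ENSMUSG00000040943, chromosome 3, 133169436 to 133250900, minus strand) measured 4.38, 4.49, and 4.38 log2 CPM in CTL, 4.22, 3.99, and 4.10 in DZ, 4.41, 4.54, and 4.53 in adenine, and 4.38, 4.33, and 3.92 in SAM. DZ lay below CTL without overlap, with a log2 fold change of -0.32 (95% interval -0.53 to -0.11), which missed the threshold (adjusted p = 0.0119) and passed it without DZ replicate 1 (-0.38, adjusted p = 0.00908). Adenine overlapped with CTL (0.07, adjusted p = 0.518). The SAM libraries lay below those of CTL only narrowly, at a mean of -0.21 (adjusted p = 0.0631), or -0.067 without SAM replicate 3. Against adenine, SAM was at -0.28 (adjusted p = 0.0231), called without SAM replicate 1 (-0.37) and at -0.14 without SAM replicate 3.

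Of 13 genes that work with DNMT1 and UHRF1 in maintenance, all in the table, 8 rose and 1 fell under adenine (median log2 fold change 0.33), where 30.6% of all genes were called higher. Kat5, Ehmt1, Ehmt2, and Dmap1 were not called, with values from -0.02 to 0.08. Under SAM 11 rose (median 0.41), where 33.7% of all genes were called higher, and Usp7 and Kat5 were not called. Under DZ 1 rose (Cdca7, 0.27, median -0.01), where 22.6% of all genes were called higher. Plain read totals called 3 higher under DZ, where they called 3206 of all 12591 genes higher, and turned that median to 0.02. The largest rises were those of Pclaf, a PCNA clamp factor, with 2.40 under adenine and 2.82 under SAM, and Lig1, the ligase of the lagging strand, with 1.50 and 2.10. Hells, a chromatin remodeller needed for DNA methylation, rose by 1.05 and 1.32, and Pcna, the sliding clamp, by 0.93 and 1.23. Usp7, a deubiquitinase that binds DNMT1 and UHRF1, fell by 0.19 under adenine, a call lost with plain read totals, and was not called under SAM (-0.08).

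Of 27 genes listed as S phase genes, 26 were in the table. The list also holds Mki67 and Top2a, which mark dividing cells more widely. Under both adenine and SAM 25 rose, where 30.6% and 33.7% of all genes were called higher, and 1, Mcm2, fell (-0.11 and -0.13). The fall of Mcm2 was not called with plain read totals. The median log2 fold change of the 26 genes was 1.28 under adenine and 1.59 under SAM, close in size to those of Dnmt1. Tk1, the thymidine kinase of dividing cells, rose by 2.36 and 3.00, and the helicase subunit Mcm4 by 1.36 and 1.76. Under DZ 17 rose and 1 fell, with a median of 0.24, where 22.6% of all genes were called higher. The summed level of the 26 genes was between 1220 and 1252 CPM in CTL, 1342 and 1472 in DZ, 2588 and 2656 in adenine, and 3090 and 3229 in SAM, in the same order of groups as Uhrf1. The part of S phase in the values of Dnmt1 and Uhrf1 was not tested. For its confluent, contact-inhibited cultures the paper reports that SAM was seen to affect neither the cell cycle nor cell death. For cells kept at low confluence it reports stunted growth and then a decline under 1 mM SAM. Both statements are about SAM, not adenine. In bulk RNA, more cells of a kind and more RNA per cell cannot be told apart.

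**Figure D4:**
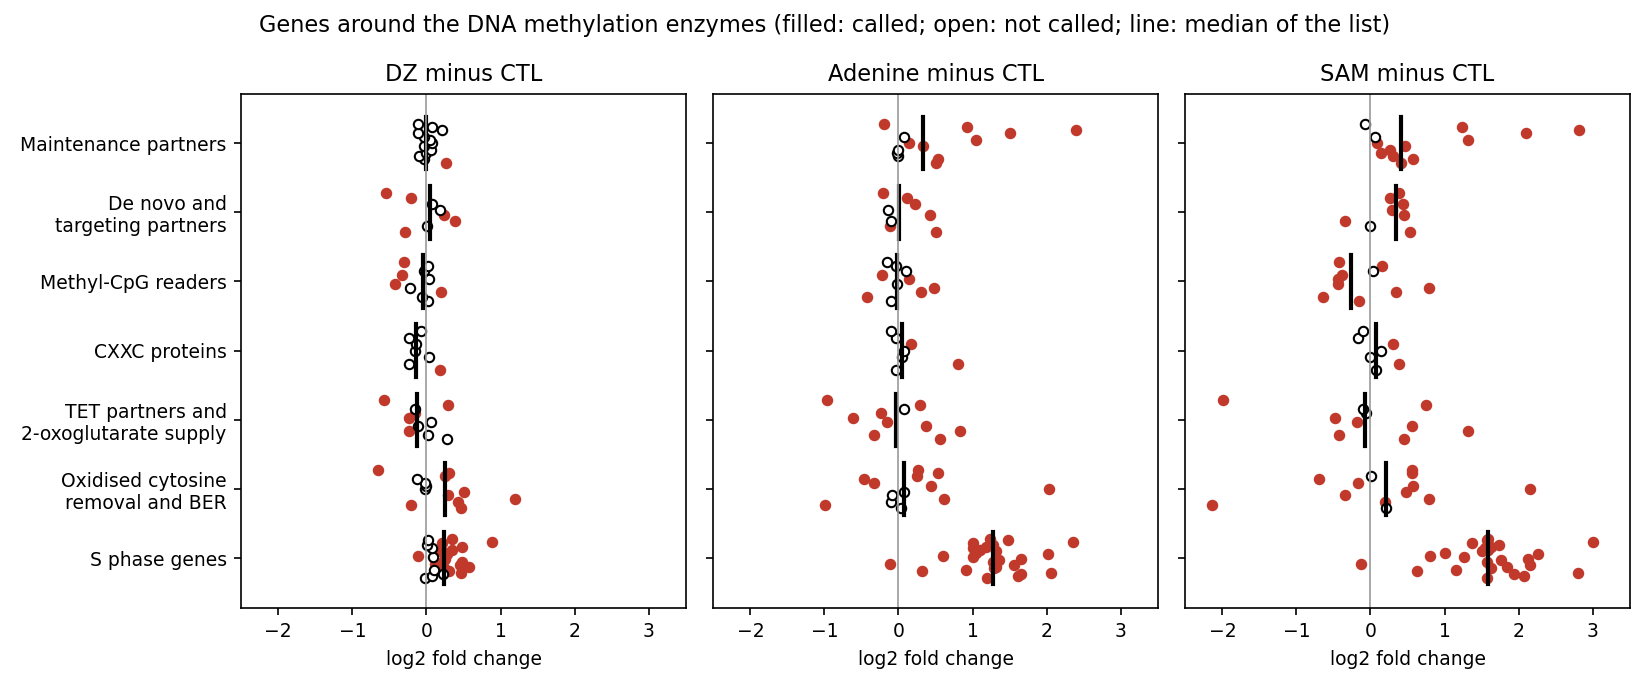
Log2 fold change of each gene (points, filled where called by limma) of 7 lists around the DNA methylation enzymes under DZ, adenine, and SAM against CTL, with a line at the median of each list. BER is base excision repair. S phase genes have medians of 0.24, 1.28, and 1.59, and those of the other 6 lists lie between -0.26 and 0.41.

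Of 10 genes for proteins that target de novo methylation and silencing, 8 were in the table, and 2 rose and 3 fell under DZ, 4 rose and 2 fell under adenine, and 6 rose and 1 fell under SAM, with medians of 0.05, 0.00, and 0.34. The share of all genes called in either direction was 45.9%, 61.6%, and 69.3%, beside which the counts of this list and the next ones are to be read. Morc2a, a silencing factor, rose in each treatment (0.23, 0.42, and 0.45). Zfp57, a zinc finger protein that protects methylation of imprinted regions, fell by 0.54 under DZ and 0.21 under adenine but rose by 0.39 under SAM. Dnmt3l, the cofactor of DNMT3 enzymes in germ cells, was not listed.

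Among the proteins that read CpG sites, all 10 methyl-CpG readers were in the table, and 1 rose and 3 fell under DZ, 3 rose and 2 fell under adenine, and 3 rose and 6 fell under SAM. The 4 of 10 called under DZ and 5 of 10 under adenine were no larger a share than that of all genes. Mbd2 fell by 0.42 under adenine and 0.64 under SAM. Mbd4, which is also a DNA glycosylase, rose by 0.48 under adenine and 0.79 under SAM. The median under SAM was -0.26, and it was -0.21 without SAM replicate 3. Plain read totals gave -0.14 under SAM and turned the median under adenine from -0.02 to 0.04. Of the 7 CXXC domain proteins in the table, which bind unmethylated CpG sites, 1, 2, and 2 rose and none fell under DZ, adenine, and SAM in limma, although median centring called 2 lower under DZ and plain read totals 4 higher under SAM.

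Ogt, the O-GlcNAc transferase that binds TET2 and TET3, fell from 9.55 log2 CPM in CTL by 0.57 under DZ, 0.97 under adenine, and 1.99 under SAM (adjusted p = 1.59e-09, 7.44e-13, and 1.31e-16). Idh1, the cytosolic enzyme that makes 2-oxoglutarate, rose by 0.83 under adenine and 1.32 under SAM. In that list of 10 genes, 1 rose and 4 fell under DZ, 4 rose and 5 fell under adenine, and 4 rose and 4 fell under SAM. With plain read totals 2 fell under DZ, and the medians of -0.04 and -0.08 under adenine and SAM turned to 0.02 and 0.04. Of 13 genes in the table for removal of oxidised cytosine and base excision repair, 7 rose and 2 fell under DZ, 6 rose and 3 fell under adenine, and 7 rose and 4 fell under SAM. Tdg rose by 0.25 under both DZ and adenine and was not called under SAM (0.01, adjusted p = 0.908). Neil3 rose by 2.03 and 2.16 under adenine and SAM, whereas the stress gene Gadd45a fell by 0.99 and 2.14, and its relative Gadd45g rose by 0.62 and 0.79.

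Germline genes that promoter methylation keeps silent in somatic cells were nearly all absent from the table. Of 20 such genes only Brdt was listed, at 1.74 log2 CPM in CTL, and it rose by 0.59 under adenine and 0.48 under SAM. Its value under DZ was -0.30 (adjusted p = 0.0493). The other 19, among them Dazl, Ddx4, and Sycp3, were not among the genes listed. The table holds only genes with at least 1 CPM in every library, CTL included. A gene silent in CTL could therefore not be listed, whatever a treatment did to it. Their absence does not show whether they stayed silent.

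To describe the patterns over the 12 libraries, each gene was compared with the protein-coding genes of at least 3 log2 CPM on average. The closest to Uhrf1 were Hells, Cdc7, and Sgo2a, with Pearson r between 0.998 and 0.999. For Dnmt1 they were Topbp1, Kif20b, and Cenpf, also between 0.998 and 0.999. The libraries fall into 4 groups, so that such r mostly describes the group means. Tet3 was closest to Lpp (0.977), and Tet2 to Slc35a3 (0.959). Uhrf2 was closest to Arnt2 (0.955), Dnmt3a to Kif1c (0.958), and Dnmt3b to Cdk18 (0.926).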

How the data were processed

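Gene expression was measured by RNA sequencing in 12 libraries, 1 per dish. Per the paper's methods and the labels, the authors trimmed reads with Trimmomatic, aligned them to GRCm39 (GENCODE vM27) with HISAT2, quantified them with StringTie, and normalized them with edgeR, versions not given in the sources used here. The values deposited by the authors are log2 CPM of 12591 genes, already scaled. They were used as they stand, with limma 3.58.1 in R 4.3.3 (lmFit on 4 groups, contrasts, eBayes with a variance trend, Benjamini-Hochberg adjustment over all genes, FDR 0.01), tested on simulated data first. Whole reads were recovered by taking off a prior count of 2, with no value farther than 0.00204 from an integer, and give the depth. StringTie derives such reads from coverage. Symbols, positions, exon lengths, and transcript starts come from GENCODE vM39 on GRCm39, which holds 12575 of the identifiers. Promoter windows were read from that genome with pysam 0.24.0.

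The genes and lists were chosen with earlier results of these data known. All listed members are named, with up to 4 genes of a list by the smallest p and genes closest to each member, of which some are not reported here. Other genes were named after their values were seen, including Tdg, Usp7, Mcm2, and Gadd45g. Alternatives tried were median centring, plain read totals, log2(CPM + 1), an FDR of 0.05, a required log2 fold change of 0.5, separate models, a fit lacking the variance trend, a robust fit, a mean of at least 3 or a minimum of 1 log2 CPM, a replicate block, voom on the recovered reads, and leaving out each library. Lists under other scalings and without SAM replicate 3 were added after seeing the data. DNA methylation was not analysed here.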

Additional observations from a re-analysis of the deposited data

How the results depend on the processing

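Members called under DZ, 2 in the reported model, were 0 without the variance trend (2 higher and 3 lower at an unadjusted p under 0.05), 4 at an FDR of 0.05, 1 with voom, and 0 with a required log2 fold change of 0.5 (0 at an unadjusted p under 0.05). They were between 0 and 3 when 1 library was left out, where 39.3% to 41.6% of all genes were called. With that required fold change, 2 of 4 genes stayed called under adenine and 0 of 4 between SAM and adenine (1 at an unadjusted p under 0.05). It called 2.88% of all genes under DZ, 16% under adenine, and 2.73% between SAM and adenine. Of all genes under DZ, 58.3% were called at an FDR of 0.05, 43.1% without the variance trend, and 44.5% with voom. Leaving out 1 library gave between 3 and 4 members called under adenine, between 2 and 3 under SAM, and between 4 and 6 between SAM and adenine. Of all genes, these fits called 57% to 57.8%, 65.3% to 68.4%, and 35.7% to 39.4%. The rises of Dnmt1 and Uhrf1 under adenine and SAM were called in every fit run. No called member changed sign in any. Besides the calls named above, median centring ended those of Uhrf1 under DZ (0.13) and of Tet3 under adenine (0.21), and called Tet3 under SAM (-0.24) and Tet2 under DZ (-0.33). Separate models ended the call of Uhrf1 under DZ (adjusted p = 0.0228) and called Tet2 (0.00176), so that the count of 2 held other genes, and voom ended Uhrf1 (0.0285). The fit without the variance trend (0.0171) and the robust fit (0.015) ended Tet3 under adenine. Deviations of same-numbered dishes from their group means correlated only weakly over all genes, with r from -0.142 to 0.181. Such r cannot show whether single genes share an effect of the dish number. The replicate block gave 2, 4, 2, and 5 members called under DZ, adenine, SAM, and between SAM and adenine. It called 45.8%, 61.5%, 69.4%, and 42.4% of all genes.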
